A study of Mus musculus with 9 samples.

Results

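The regions described here are Sox2 binding regions that were listed in mouse lung epithelial cells carrying ectopic Sox2 and an Nkx2-1 deletion, had no overlapping region (by 1 bp) in the other cells of the series, and lay outside genes but close to one. They were chosen from the peak lists: a summit, the point of highest signal in a region, was a member when it fell outside every annotated span of a protein-coding gene and within 50 kb of one. The rule gave 672 summits in 662 regions, which was 26.0% of the 2589 summits of that list and part of 3370 summits in all 3 lists. The presence and absence that chose them is therefore not a finding, and no test is made on it.

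Sox2-bound DNA was captured by ChIP-seq (sequencing of immunoprecipitated chromatin), with a goat antibody, in C57BL/6 cells labelled as aged 8 weeks. The groups used were cells with ectopic Sox2 and Nkx2-1 deletion, cells with ectopic Sox2 and intact Nkx2-1, and wildtype cells, with 1 Sox2 ChIP library each. How ectopic Sox2 and the deletion were brought about, in which cells, and from how many animals is not given in the sources used here. All cells were crosslinked with EGS and then formaldehyde, and the libraries were read as single 50 bp reads. Peak lists carry no expression, so neither the Sox2 and Nkx2-1 status nor the epithelial identity of the cells could be checked against marker genes. With 1 library per condition, a difference between conditions has no replicates behind it and gets no p-value. Intervals are exact 95% Poisson (fragments) or binomial (shares) intervals that cover counting error only.

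Sox2 is a transcription factor of the SRY-box family that binds short DNA elements related to ACAAAG and ACAATG. In the developing foregut it marks the airway and the oesophagus, and in adult stratified epithelia it is found in basal cells. Nkx2-1 is the homeodomain factor that sets lung identity, and in its absence foregut derivatives take on features of other parts of the gut tube. Regions outside a gene body can be promoters, which lie mostly just before a gene's first base, or distal elements such as enhancers, and a distal element need not act on the nearest gene.

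Of the 672 summits, 24 fell within a RefSeq promoter window, taken as 250 bases before to 50 bases after a gene's start. Of those windows, 17 belonged to protein-coding genes and 7 to non-coding ones. The 250 bases before the start are shown for 6 protein-coding genes, chosen after their values were seen to display promoters with and without the letters searched. The sequences are RefSeq's, build GRCm38.p6, written 5′ to 3′ along the gene, with capitals for the Sox letters ACAAAG or ACAATG and the AP-1 letters TGAGTCA on either strand. Cutal (chr2:34874146-34874395, plus strand) held a pair of adjoining Sox matches, and its summit lay 237 bases before the start. Sprr2a3 (chr3:92285054-92285303, plus strand), a cornified envelope gene, and Gpx2 (chr12:76795555-76795804, minus strand), a glutathione peroxidase of the gut epithelium, held 1 Sox match each. The Gpx2 match lay 4 bases from the summit. Cd68 (chr11:69666171-69666420, minus strand), a macrophage gene that lies beside the Sox gene Sox15, held 2 Sox and 2 AP-1 matches. Ankrd22 (chr19:34166042-34166291, minus strand) held 1 AP-1 match and no Sox match. Crnn (chr3:93144539-93144788, plus strand), which encodes the squamous protein cornulin, held neither. Its window did hold TGAATCA, a match of the wider AP-1 form TGANTCA that is not capitalised.
Cutal: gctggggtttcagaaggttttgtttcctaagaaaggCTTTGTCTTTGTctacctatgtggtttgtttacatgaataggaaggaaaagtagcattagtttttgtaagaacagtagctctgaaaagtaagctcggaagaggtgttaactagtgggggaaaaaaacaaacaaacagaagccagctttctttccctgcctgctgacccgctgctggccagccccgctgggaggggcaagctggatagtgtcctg
Sprr2a3: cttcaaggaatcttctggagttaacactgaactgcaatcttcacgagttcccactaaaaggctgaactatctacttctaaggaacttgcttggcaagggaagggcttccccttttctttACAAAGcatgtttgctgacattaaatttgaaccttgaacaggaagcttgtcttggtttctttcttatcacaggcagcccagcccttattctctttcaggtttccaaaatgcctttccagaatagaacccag
Gpx2: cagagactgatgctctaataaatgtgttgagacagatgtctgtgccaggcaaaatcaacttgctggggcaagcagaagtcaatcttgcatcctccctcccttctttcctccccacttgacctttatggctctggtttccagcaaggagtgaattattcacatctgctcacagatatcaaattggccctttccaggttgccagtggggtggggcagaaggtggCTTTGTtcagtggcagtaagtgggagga
Cd68: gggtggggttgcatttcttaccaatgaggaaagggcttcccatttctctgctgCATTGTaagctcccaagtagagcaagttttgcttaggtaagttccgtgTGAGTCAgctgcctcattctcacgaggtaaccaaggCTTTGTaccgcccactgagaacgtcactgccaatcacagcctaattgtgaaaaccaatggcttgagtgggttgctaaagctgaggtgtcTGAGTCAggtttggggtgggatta
Ankrd22: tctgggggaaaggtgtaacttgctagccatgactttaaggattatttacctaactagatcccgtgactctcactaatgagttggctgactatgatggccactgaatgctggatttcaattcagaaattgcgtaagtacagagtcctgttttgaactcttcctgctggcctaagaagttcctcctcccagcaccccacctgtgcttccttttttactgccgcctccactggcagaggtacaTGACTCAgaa
Crnn: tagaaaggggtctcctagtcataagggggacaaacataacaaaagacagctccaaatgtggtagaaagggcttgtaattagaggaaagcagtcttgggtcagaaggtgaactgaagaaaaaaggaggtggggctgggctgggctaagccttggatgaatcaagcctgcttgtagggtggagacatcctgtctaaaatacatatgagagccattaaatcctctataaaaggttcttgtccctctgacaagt

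Sox letters were more frequent in these promoters than in promoters at large. ACAAAG or ACAATG, on either strand, was present in 15 of the 24 windows, or 62.5% (40.6 to 81.2), against 25.2% of all 32851 promoters of the same length. The Sprr2a2 and Sprr2a3 windows, identical over 222 of 222 aligned bases, are both among the 15, so the windows are not all independent. ACAAAG was in 12 windows (50.0%, against 16.5%) and ACAATG in 6 (25%, against 10.7%). In 6 of the 24 windows a Sox match lay within 25 bases of the summit, against 5.11% of all promoters at the same offsets. The AP-1 letters TGAGTCA, the element of Jun and Fos factors, were in 6 windows (25%, against 4.46%). The wider form TGANTCA, which includes TGAGTCA, was in 9 (37.5%, against 6.75%), and the narrower form was chosen for display after that count was seen. The member promoters were poorer in G and C, with a median of 47.6% against 52.4% in all promoters. Among windows under 50% G and C, Sox letters were in 12 of 16 (75%, against 36.3%), and among the rest in 3 of 8 (37.5%, against 17.5%).

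The other letters searched were near the share of all promoters, or rested on few windows. The Nkx2-1 core CAAGTG was in 1 window (4.17%, against 11.6%). The Tead core GGAATG was in 4 (16.7%, against 12.6%), the forkhead core TGTTTAC in 2 (8.33%, against 3.17%) and the GC-rich Klf letters GGGNGGG in 10 (41.7%, against 44.8%). A match of letters describes the sequence and is not a binding site, and the windows cover 24 members only. Members outside promoter windows were not read for sequence.

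A median member carried 39 ChIP fragments at its summit, with a range of 16 to 109, at a median fold of 5.55 over the local control background (2.53 to 15.8). The median −log10 q was 5.38, and 402 members (59.8%) reached 5 or more. Regions were narrow, with a median width of 253.5 bp and a range of 200 to 732 bp. Folds and −log10 q are the authors' values per summit, while fragments were worked out from fold and −log10 p. A summit's fragments do not tell a site bound in few cells from one bound weakly in many.

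The deletion-only summits elsewhere looked alike in these values, while shared near-gene summits were stronger. The median was 39 fragments at the members, 36 at the 1093 deletion-only summits inside genes and 36 at the 494 deletion-only summits over 50 kb from a gene. The median fold was 5.55 at the members, 5.84 inside genes and 5.70 far from genes. The 86 near-gene summits of the same list that overlapped another list had a median of 52.5 fragments, and 75.6% of them reached a −log10 q of 5. These values come from the list that chose the members and are a description.

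**Figure D1:**
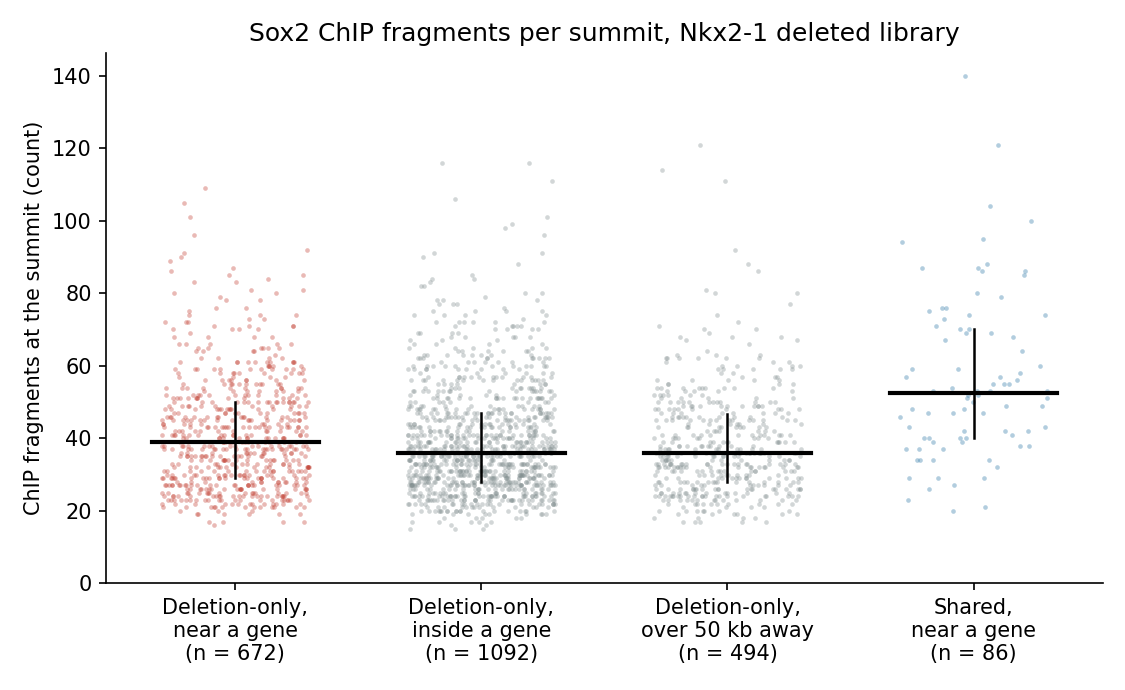
Sox2 ChIP fragments at each summit of the Nkx2-1 deleted library (y axis, count), by class of summit. Horizontal bars are medians, vertical bars the middle 50% of summits and dots single summits; the near-gene deletion-only summits (median 39) overlap the deletion-only summits inside genes and far from genes (36 each), and the shared summits sit higher (52.5). The plot leaves out 1 of the 1093 summits inside genes, whose fragments were not resolved.

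The library with the deletion was the deepest of the 3. Its mean ChIP coverage, recovered from the list, was 1.45 fragments per base, against 0.764 with ectopic Sox2 alone and 0.963 in wildtype cells. It gave 2589 summits, against 229 with ectopic Sox2 alone and 552 in wildtype cells, and 87.3% of its summits overlapped neither other list. Scaled to the depth of the ectopic Sox2 library, 589 of the 672 members (87.6%) would still have passed the lowest −log10 p listed there (5.47). Scaled to the wildtype depth, 669 members (99.6%) would have passed the lowest listed value (5.27). Of the whole deletion list, 88.6% passed at the ectopic Sox2 depth and 99.5% at the wildtype depth. Against the 5th percentile of the listed −log10 p, 464 members passed at the ectopic Sox2 depth and 642 at the wildtype depth. The scaled values start from the list that chose the members and carry no counting error. The part of depth in the absences was not tested. A region missing from a list says that it did not pass there, not that Sox2 was absent, and the other libraries list no value at the members.

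Most members had no region of another list nearby. The median gap to the nearest region of either list was 995 kb, and 59 members (8.78%) had one within 50 kb. Within 1 kb there were 3. The closest was a region 11.7 kb from the desmosomal cadherin gene Dsg3, with 36 fragments and a fold of 7.38. It lay 406 bp from a wildtype region that had 26 fragments and a fold of 5.06. On the other side of that threshold, a region near Macc1 counted as shared because 97 bp of it overlapped another list. The members were chosen for not overlapping the other lists, which held only 229 (ectopic Sox2) and 552 (wildtype) summits over the genome. No such gap was worked out for other summits or for the genome, so the gaps are a description and not a trait of the members.

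Near-gene positions took up a somewhat larger share of the deletion-only summits than of the genome. Of the 2259 deletion-only summits, 29.7% (27.9 to 31.7) were near a gene, against 32.8% (26.7 to 39.2) of the ectopic Sox2 list, 24.5% (20.9 to 28.3) of the wildtype list and 24.4% of positions on a regular grid over the genome. The deletion-only share was not higher than that of the ectopic Sox2 list. Summits are not replicates of a condition, so the lists were not tested against each other. The grid was not limited to positions where 50 bp reads can be placed.

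Within that space the members leaned towards gene starts. The median distance to the nearest gene was 12.3 kb, against 10.9 kb for the shared near-gene summits and 14.2 kb for the grid. Within 1 kb of a gene lay 52 members (7.74%, 5.83 to 10.0), against 5.46% of the near-gene grid. Within 5 kb lay 180 members (26.8%, 23.5 to 30.3), against 23.0%, and within 10 kb 295 (43.9%, 40.1 to 47.7), against 39.2%. Of the 86 shared near-gene summits, 14.0% lay within 1 kb, 32.6% within 5 kb and 47.7% within 10 kb, all above the members. Within 25 kb the shared share was lower, 70.9% against 75.7% of members. Closeness to genes was thus not particular to the members. Strand was given for the nearest gene of 524 members. Of these, 318 lay before the start and 206 past the end, so that 60.7% (56.4 to 64.9) were on the upstream side, against 75.8% (63.6 to 85.5) of 66 shared near-gene summits and 53.8% of the grid. The 5 kb before the start held 17.6% of these members, against 12.0% of the grid. The 5 kb past the end held 9.54%, against 11.2%.

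**Figure D2:**
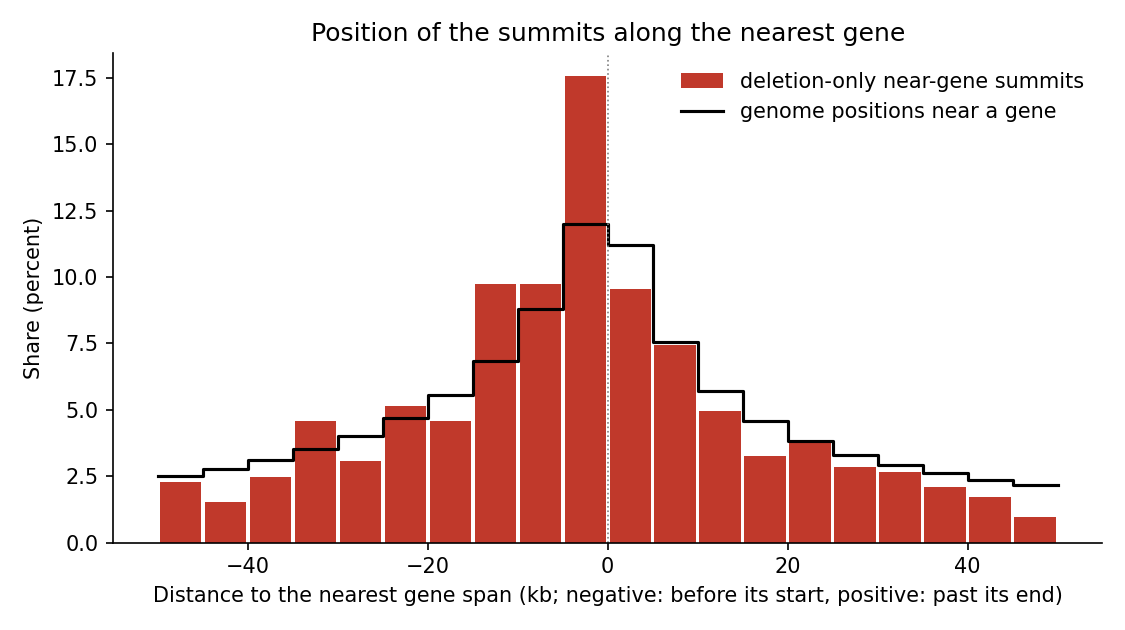
Distance from the summit to the nearest gene span (x axis, kb, negative before the start and positive past the end) for the 524 members with a known gene strand, as percent of those members per 5 kb (y axis). Red bars are the members and the black line near-gene genome positions; the bar just before the start reaches 17.6%, against 12.0% for the line.

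Median fragments did not follow distance, while fold was lowest next to genes. The median fold was 5.13 within 1 kb, against 5.53 to 5.64 in the farther distance classes. A −log10 q of 5 was reached by 51.9% within 1 kb, against 55.7% to 63.3% in the farther classes. The median number of fragments was 39 within 1 kb of a gene, 38.5 at 1 to 5 kb, 35 at 5 to 10 kb, 40 at 10 to 25 kb and 38 at 25 to 50 kb. At the outer threshold, the farthest member lay 49.0 kb from Ndufa4 (fold 5.79, 25 fragments), and the nearest summit left out lay 50.0 kb from Myh15 (fold 5.60, 19 fragments). At the inner threshold, the closest member lay 1 bp before Cfl1, the gene of the actin-severing protein cofilin (fold 6.40, 43 fragments). A summit on the outermost base of the Kif21a span counted as inside (fold 3.55, 48 fragments).

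The strongest members by −log10 q lay near genes of varied function. The first was 27.1 kb past the end of Cntnap2, a neurexin-family adhesion gene (chromosome 6, 47328273 to 47328606). It had 87 fragments (69.7 to 107) and a fold of 12.6 at a −log10 q of 26.6. The largest fold, 15.8, belonged to a region 19.0 kb before Dcbld2, which encodes a transmembrane receptor-like protein, with 58 fragments (44.0 to 74.98). Regions near the palmitoyltransferase gene Zdhhc25 (63 fragments, fold 13.8), Pudp (51, fold 14.0) and the olfactory receptor gene Olfr488 (59, fold 12.99) were also among the largest folds. These regions and the one at Dcbld2 had a control background of 1 or less.

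Beside the strongest region at Dsg3, the 15 highest −log10 q values included regions near the mitochondrial nucleoside kinase gene Dguok (75 fragments, 1.31 kb past the end) and the telomere-binding gene Terf2 (59 fragments, 23.0 kb before the start). Slc3a2, the heavy chain of an amino acid transporter, had one 4.26 kb past its end with 61 fragments. Trim44 (68 fragments), Wdhd1 (52) and Arrdc4 (54) had 1 each in this set. The region 13.5 kb before Gm42226 had the most fragments of the 15, 96 (77.8 to 117), and a fold of 6.94 over a background of 5.

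Among members within 1 kb of a gene, the highest −log10 q values were at Olfr488 (19.8, 536 bp past the end) and Dsg3 (18.1, 183 bp away). Pip, a secretory gland gene, followed with 45 fragments 719 bp past its end. Cutal, whose promoter held the adjoining Sox matches, had 70 fragments (54.6 to 88.4) at a fold of 6.13. Pus10, the gene of a pseudouridine synthase, and Stau2, that of an RNA-binding protein, had 31 and 55 fragments, at 123 and 220 bp. Sprr2a3 had 71, Cfl1 43, Aig1 51 and the actin crosslinker gene Actn4 34. Of the members within 1 kb with a known strand, 29 lay before the start and 14 past the end, against 50.0% before the start for the grid.

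In all, 1189 of 21887 protein-coding genes, 5.43%, had a member within 50 kb. One member was counted for every gene in reach, and 306 members had a single gene within 50 kb while the most crowded had 11. Of the 1189 genes, 1036 had 1 member, 122 had 2, 26 had 3 and 5 had 4. The share was 1.56% of genes with a member within 10 kb, 2.75% when a member counted for its nearest gene alone, and 3.45% for members with a −log10 q of 5 or more. A deletion-only summit inside the gene was also listed for 98 of the 1189 (8.24%), against 4.03% of all genes. A wildtype summit lay within 50 kb of 67 (5.63%, against 2.85%) and an ectopic Sox2 summit within 50 kb of 49 (4.12%, against 1.53%).

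Gene lists of lung and squamous cell types, pathways and controls held 45 such genes of 400, or 11.25%, against 5.43% of all genes. The lists were written with earlier results of these data known, genes of a cluster share summits, and no test was made, so the shares are descriptions. The highest share, 9 of 25 (36.0%), was in the list of basal and squamous epithelial genes, the cells of stratified linings. Those 9 genes rested on 8 summits. With a −log10 q of 5 or more asked for, 1 of the 9 was left (Dsg3), and with the gene within 10 kb 2 were left.

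**Figure D3:**
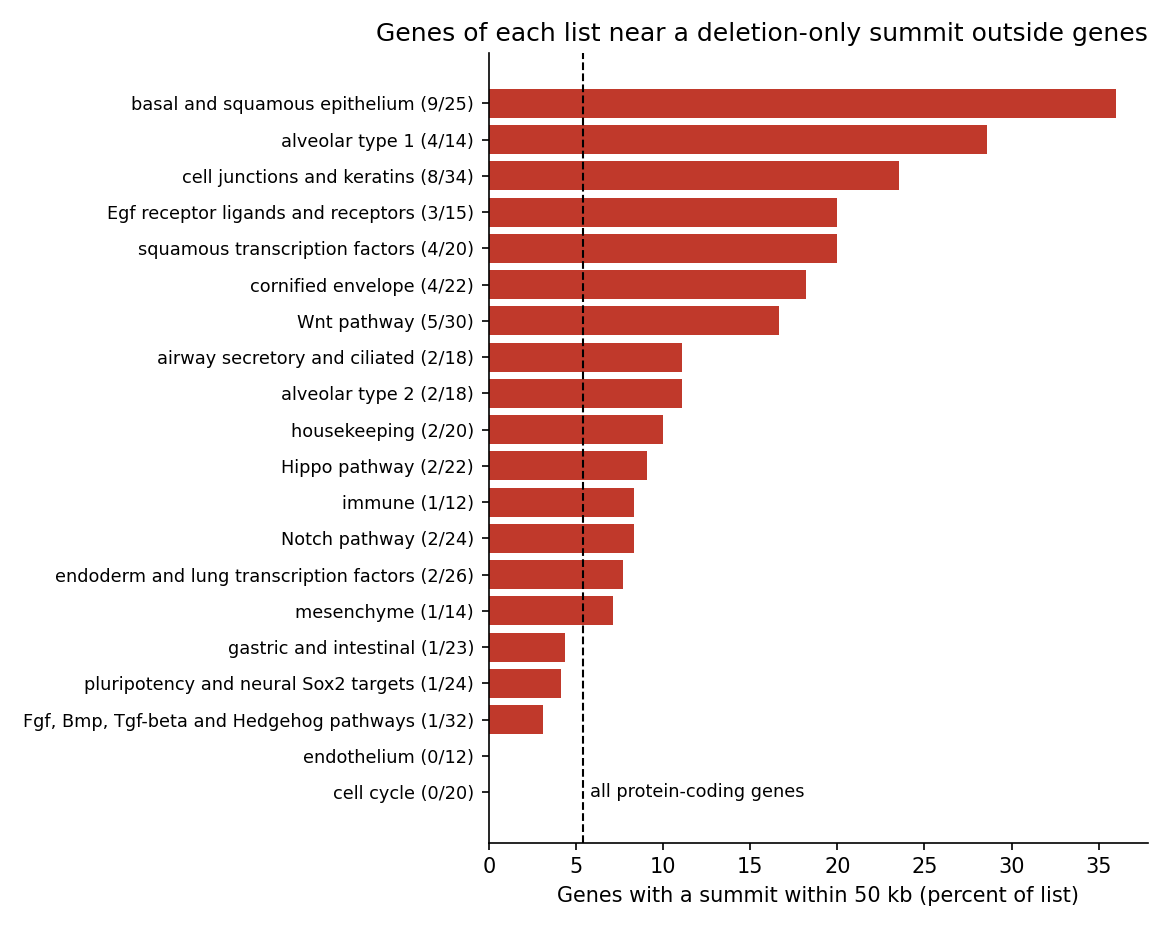
Percent of the genes in each list with a member within 50 kb (x axis), with the number of genes over list size beside each name. The dashed line marks the 5.43% of all protein-coding genes; basal and squamous epithelium stands highest at 36.0%, and cell cycle and endothelium are at 0.

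Dsg3, which encodes the desmosomal cadherin of basal keratinocytes, had the strongest member of any list gene. The region on chromosome 18, 20509958 to 20510255, lay 183 bp from the gene and held 59 fragments (44.9 to 76.1) at a fold of 11.8. The Dsg3 member beside the wildtype region was the gene's other one. Dsg2, a desmosomal cadherin gene of the same cluster, counted through the region 183 bp from Dsg3, which lay 48.0 kb from Dsg2. The plakophilin gene Pkp1 had 2 members, with 36 and 65 fragments, the second over a control background of 9. A region 16.8 kb before Krt20, a keratin of gut surface cells, had 47 fragments (34.5 to 62.5) and a fold of 8.71. Krt13, Krt14, Krt15 and Krt19 all counted through 1 weak region with 30 fragments, a fold of 3.43 and a −log10 q of 1.45, close to the lowest in the list (1.38). In the list of cell junctions and keratins, 8 of 34 genes (23.5%) thus rested on 6 summits. The count was 1 with the gene within 10 kb, 3 for the nearest gene alone and 4 with a −log10 q of 5 or more.

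Among other basal genes, Ngfr, the neurotrophin receptor gene of basal cells, had a region with 36 fragments and a fold of 4.06. Itga6, the hemidesmosomal integrin gene, had one with 24 fragments 48.0 kb away. Pdpn, a gene of basal and alveolar type 1 cells, had one with 34 fragments 29.1 kb past its end. None of these 3 reached a −log10 q of 5.

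Of 20 squamous transcription factor genes, 4 (20%) had a member. Prdm1, which encodes the repressor Blimp1 of terminal differentiation, had 3. They held 42 and 32 fragments 36.7 and 22.6 kb before its start, and 64 fragments 9.07 kb past its end, in the promoter window of the non-coding gene Gm35028. Klf5 had a region 26.1 kb away with 41 fragments (29.4 to 55.6) and a fold of 6.12, and a deletion-only region inside the gene with 66. The epithelial Ets gene Ehf likewise had a member with 62 fragments 24.4 kb away and a deletion-only region inside with 26. Sox15 counted through the summit in the Cd68 promoter, 9.58 kb past its end, with 34 fragments. Cd68 was the 1 gene of 12 on the immune list, through that same summit, so this summit stands for an immune and a squamous gene alike.

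Of 22 cornified envelope genes, 4 (18.2%) had a member: Ppl, Sprr2a1, Anxa1 and Ivl. The envelope is the protein shell of outer squamous cells. Ppl (periplakin) had 43 fragments (31.1 to 57.9) 13.2 kb away at a fold of 8.00. Ivl (involucrin) had 25 fragments 26.1 kb past its end. Anxa1, which encodes an annexin crosslinked into the envelope, had a member 14.5 kb before its start with 61 fragments, in the promoter window of the non-coding gene 1500015L24Rik. Beside it stood a shared region with 140 fragments in the deletion library and 49 in wildtype, a ratio of 1.90 after scaling for depth. Another shared region, 36.0 kb before the start, had 53 in the deletion library and 33 in wildtype, a scaled ratio of 1.07. A deletion-only region inside the gene held 59.

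The Sprr2a genes, which encode small proline-rich envelope proteins, had several members but are near-identical copies, so reads may have been placed at either copy. The promoters of Sprr2a2 and Sprr2a3 were identical over 222 of 222 aligned bases. Sprr2a2 had 4 members within 50 kb, with 92, 57, 80 and 71 fragments, over control backgrounds of 9, 7, 9 and 6. The region 180 bp before Sprr2a1 was listed with 69 fragments in the deletion library and with 20 in the ectopic Sox2 library, a ratio of 1.82 after scaling for depth. The region 4.26 kb before Sprr2a2 had 73 in the deletion library and 42 with ectopic Sox2, a scaled ratio of 0.914. At these copies, equivalent positions were thus members at one gene and shared at another, and the values are uncertain.

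Of the signalling lists, the Egf receptor ligands and receptors had 3 of 15 genes (20%), all of them ligands. Tgfa had 3 members, with 56 fragments 14.3 kb before its start, and 40 and 43 fragments 18.1 and 49.1 kb past its end. Each reached a −log10 q of 5. Areg and Ereg, neighbouring ligand genes, counted through 1 region with 50 fragments (37.1 to 65.9). None of the 3 had a member within 10 kb, nor a wildtype or ectopic Sox2 summit within 50 kb.

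The Wnt list had 5 of 30 genes (16.7%), none with a member within 10 kb. The receptor genes Fzd7 and Fzd1 had 33 and 55 fragments, 32.6 and 30.5 kb before their starts. The ligand gene Wnt5b had 27 fragments 13.5 kb past its end and a deletion-only region inside. The feedback inhibitor gene Axin2 had 26 fragments 29.9 kb past its end. Sfrp1, the gene of a secreted antagonist, had 21, and it alone of the 5 fell under a −log10 q of 5.

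In the Hippo list 2 of 22 genes (9.09%) had a member. Ccn2, a matricellular target gene of Yap and Tead, had 3: 40 fragments at 4.74 kb, 35 fragments 25 bp from the gene, and 29 fragments at 30.7 kb. Their −log10 q values were 10.3, 2.58 and 3.01, so only the first reached 5. Tead1, the gene of the DNA-binding partner of Yap, had 53 fragments 33.4 kb away, with an ectopic Sox2 and a wildtype summit also within 50 kb of the gene. The Notch list had 2 of 24 (8.33%). The effector gene Hes1 had 49 fragments 12.0 kb away, and the Fringe gene Rfng had 38 fragments 14.3 kb before its start. The Fgf, Bmp, Tgf-beta and Hedgehog list had 1 of 32 (3.13%), the Erk phosphatase gene Dusp6, with 51 fragments. These 3 lists held 1 or 2 such genes each.

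Lung lineage genes had members as well. Of 14 alveolar type 1 genes, 4 (28.6%) did: Pdpn, Gprc5a with 65 fragments 40.5 kb away, Spock2 with 33 fragments 27.2 kb past its end, and Ahnak. The Spock2 summit lay in the promoter window of the non-coding gene Gm51802, 4 bases from a Sox match. Ahnak had 2 members, the stronger with 60 fragments 6.29 kb before its start, and a deletion-only region inside. Of the 4 alveolar type 1 genes, 1 had a member within 10 kb and 1 was the nearest gene of a member. Alveolar type 2 genes had 2 of 18 (11.1%), both under a −log10 q of 5: Il33 with 61 fragments over a background of 8 (fold 2.98), and Fabp5 with 42 over 5 (fold 3.13). Airway genes had 2 of 18 (11.1%), the club cell genes Scgb1a1, with 54 fragments 6.51 kb away, and Cyp2f2, with 25 fragments 9.60 kb before its start. The Scgb1a1 summit lay 202 bp past the end of Ahnak and was that gene's second member, so it stands for an alveolar type 1 and an airway gene alike. Both airway genes were also under a −log10 q of 5.

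The remaining lists held 0 to 2 genes each. Endoderm and lung transcription factors had 2 of 26 (7.69%), Tead1 and the Iroquois gene Irx2, which had 39 fragments 20.8 kb before its start. Gastric and intestinal genes had 1 of 23 (4.35%), Krt20. Pluripotency and neural Sox2 targets had 1 of 24 (4.17%), Fabp7, a fatty acid binding gene of neural progenitors, with 50 fragments 21.7 kb before its start. Mesenchyme had 1 of 14, Dcn, with 24 fragments 3.92 kb away. Cell cycle had 0 of 20 and endothelium 0 of 12. Housekeeping genes, a control list, had 2 of 20 (10.0%), Tubb5 and Eef2, so a share of that size was also found outside the epithelial lists.

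Counted by summit, 156 members (23.2%) had another member within 50 kb, and 79 within 10 kb. Summits of the same region count as separate members here. No such share was worked out for other summits or for the genome, so grouping was not tested. Outside the Sprr2a copies, the genes with most members were Gpnmb, Svs1, Ankrd22 and Enpp1, with 4 each. At Gpnmb, which encodes a transmembrane glycoprotein, regions 14.0, 8.29 and 7.54 kb and 2 bp before the start held 37, 59, 81 and 47 fragments. Svs1 counted through those same summits, and Malsu1 through the ones 8.29 kb, 7.54 kb and 2 bp before the Gpnmb start. Ankrd22 had 66 fragments 52 bp and 31 fragments 661 bp before its start. Its other regions held 28 fragments 14.4 kb before the start and 72 fragments 31.4 kb past the end. Lipm, a lipase gene of differentiating keratinocytes, shared 3 of these, and the region with 72 fragments lay 9.83 kb before it. Enpp1, a gene of extracellular nucleotide breakdown, shared 3 of its 4 with Ccn2, and the fourth had 28 fragments 6.33 kb before its start.

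Cdk19, a kinase gene of the Mediator complex, had 3 members with 47, 78 and 58 fragments between 27.2 and 37.9 kb away, and 2 deletion-only regions inside the gene. A wildtype region with 26 fragments and a fold of 6.75 also lay inside Cdk19, beside the deletion-only region with 34 fragments. Mxi1, a Myc antagonist gene, had 3 with 105, 73 and 73 fragments, but over control backgrounds of 17, 8 and 8, so that the folds were 2.53, 3.54 and 3.54. The fold of 2.53 was the lowest of all members. Ptgs2, the inducible cyclooxygenase gene, had 43, 41 and 61 fragments between 7.30 and 43.4 kb past its end, and was picked for display after its values were seen.

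**Figure D4:**
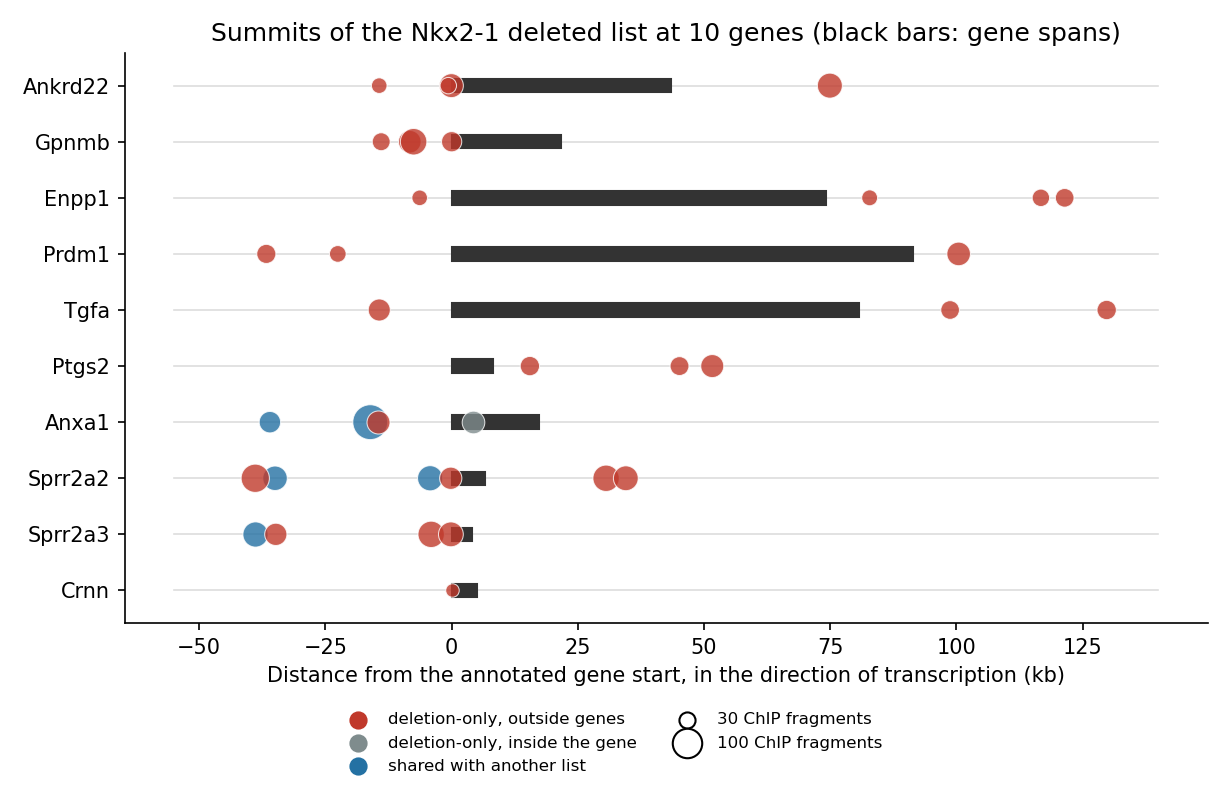
Summits of the Nkx2-1 deleted list at 10 genes, by distance from the annotated gene start in the direction of transcription (x axis, kb). Black bars are gene spans and circle area grows with ChIP fragments; red summits are members, grey ones deletion-only inside the gene and blue ones shared with another list, as at Anxa1, where the shared summit holds 140 fragments and the member 61.

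The members were spread unevenly over chromosomes. There were 3.07 members per 100 protein-coding genes in all, with 6.77 on chromosome 16, 6.38 on chromosome 19, 6.19 on chromosome 12, 1.24 on chromosome X and 1.13 on chromosome 17. The 6 chromosomes with most members per gene (16, 19, 12, 18, 10 and 6) were picked by these values and held 273 members (40.6%). The whole deletion list was spread in a like way, with 37.1% of its summits there, so the pattern is not particular to the members. The same chromosomes held 19.7% of ectopic Sox2 summits, 28.3% of wildtype summits and 21.5% of protein-coding genes. The mean control background at members was 2.71 there, against 2.48 elsewhere, while the median was 2 in both. On chromosome 19 the median was 50 fragments over a background of 3.20, against 39 over 2 for all members. The part of the control signal in this spread was not tested.

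**Figure D5:**
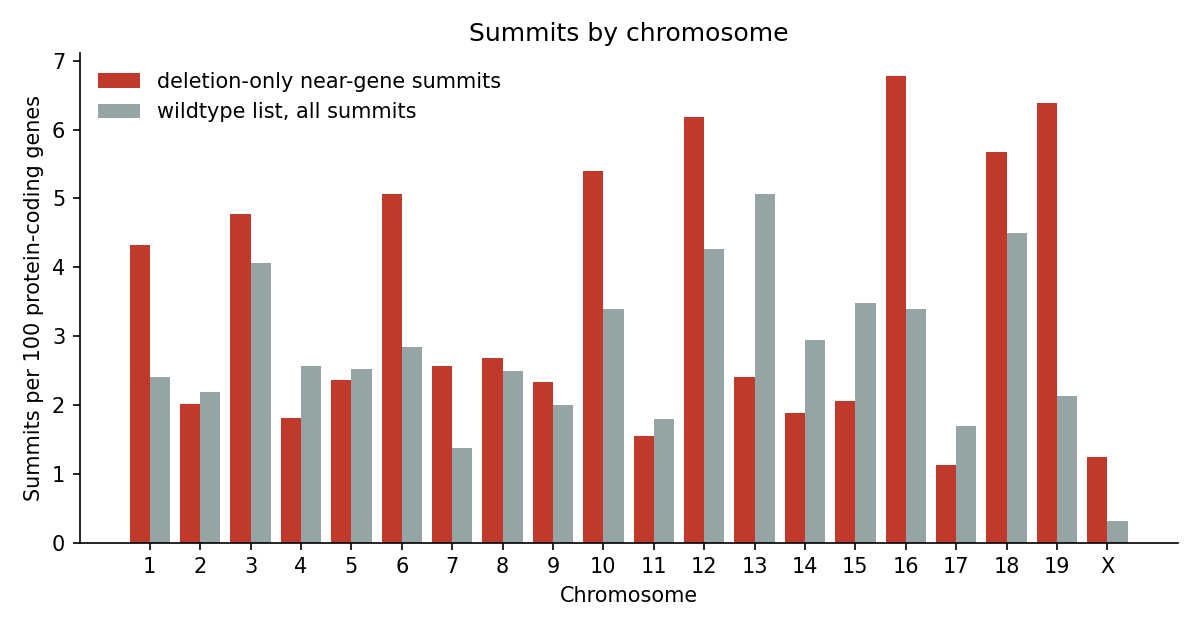
Summits per 100 protein-coding genes (y axis) on each chromosome except Y, for the members (red) and for the whole wildtype list (grey). Chromosome Y, not plotted, had 1 member (0.391 per 100 genes). Chromosome 16 has 6.77 members and 3.39 wildtype summits per 100 genes, and chromosome 19 has 6.38 and 2.13.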

How the data were processed

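Sox2 ChIP, IgG and input libraries were made from lung epithelial cells, 1 per condition. Each of the 3 Sox2 ChIP libraries has its own deposited peak list, so samples were not pooled for calling. Input and IgG libraries are not analysed here. The submitters' processing notes name Bowtie2 2.2.9, SAMtools 1.4, MACS2 2.1.1, HOMER 4.8.3 and the build mm10. The sources used here do not give the calling threshold or the control behind each list. For every summit, the authors' deposited lists hold a score, a fold (a ratio over local background), −log10 p and −log10 q. Positions are printed counting from 1.

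Fold, written as (pileup + 1) / (background + 1), and the Poisson −log10 p together gave whole ChIP fragments (tolerance 0.02) for 2588 of 2589 summits of the deletion list. The 1 left out lay inside a gene. Background is the control value on the scale of the deposited list. Coverage was the genome-wide background divided by the recovered scale. It gave the depth of each library, and read totals are not given. For depth scaling, fragments were divided by the depth ratio. Background was multiplied by the genome-wide background of the other library over that of the deletion library. It was kept at or above the genome-wide background of the other library.

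Genes were 21887 protein-coding spans of RefSeq GRCm38.p6, the build mm10. Strand came from the RefSeq promoter table, which lacked 4395 genes. No genome sequence was used. The genome grid, spaced evenly, had 26582631 positions. It was not matched to the positions where 50 bp reads can be placed, so it is a rough baseline for the summits. The members, the gene lists and the comparisons were chosen with earlier results of these data known. All 400 list genes matched. Named genes are those nearest to the 15 highest −log10 q, the 5 highest folds and the 10 highest −log10 q within 1 kb of a gene; up to 10 genes with at least 3 members; up to 4 per list by −log10 q; and members next to the thresholds. Some genes that this rule names are not reported here. Further promoter and list genes were named after their values were seen. Alternatives changed the overlap, the distance, the annotation and the −log10 q. Python 3.11.15, numpy 2.4.6, pandas 2.3.3 and scipy 1.17.1 were used, and the fragment recovery was tested on simulated data.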

Additional observations from a re-analysis of the deposited data

How the results depend on the processing

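The number of member summits, 672, fell to 295 with the gene within 10 kb and to 402 with a −log10 q of at least 5. It was 671 and 662 when a region of another list within 500 bp or 5 kb counted as shared, 837 with the gene within 100 kb, 826 with all annotated genes, 654 with the whole region outside genes, and 662 with 1 summit per region, an alternative added after seeing the data. With a −log10 q of at least 5, the median fold was 6.43 and the median was 43 fragments. The share within 5 kb of a gene was 35.5% with all annotated genes. The share of protein-coding genes near a member was 1.56% within 10 kb, 2.75% for the nearest gene and 3.45% with a −log10 q of at least 5. The list genes near a member were then 11, 29 and 29, against 45. Scaled to the ectopic Sox2 depth, 464 members passed the 5th percentile of the listed −log10 p and 661 the lowest listed fragments, and at wildtype depth 642 and 672 did. No paired analysis was possible because each condition has 1 library. Limits are the single library per condition, unknown read totals, and near-identical copies such as Sprr2a2 and Sprr2a3.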
